A study of Mus musculus with 18 samples.

Results

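The subunits of the oxidative phosphorylation machinery were followed in the frontal cortex of mice of 3 genotypes by RNA sequencing. Genes were taken by name from the deposited table (names opening with Nduf and a subunit letter and number, Uqcr, Atp5, Cox4 to Cox8, the names Sdha to Sdhd, and the mt-Nd, mt-Co, mt-Cytb and mt-Atp genes), and 13 names holding -ps, for pseudogenes, were dropped. This gave 102 of the 55487 genes in the table: 89 in the nucleus and 13 in the mitochondrial genome. Of these, 4 nuclear members (Cox6c2, Ndufa11b, Ndufb4c and Ndufs6b) are annotated as processed pseudogenes, and 2 rows carry the name Atp5o.

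Oxidative phosphorylation is carried out by 5 complexes of the inner mitochondrial membrane. Complexes I, III and IV pass electrons from NADH to oxygen and pump protons, complex II feeds in electrons from succinate, and complex V, the ATP synthase, uses the proton gradient to make ATP. Complexes I, III, IV and V are built from subunits of both genomes, which are transcribed in separate compartments, whereas complex II is wholly nuclear-encoded. Neurons depend heavily on this machinery for firing and synaptic transmission.

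The study asked how deletion of farnesyltransferase, the enzyme that attaches a farnesyl lipid to proteins such as Ras, in forebrain neurons changes an amyloid mouse model. The groups were WT, APP/PS1 (a transgenic amyloid model) and APP/PS1/FTnKO, the last of these also carrying a CamKIIα-Cre transgene that deletes Fntb, the β subunit of the enzyme, in forebrain neurons. According to the methods of the study all 3 genotypes were homozygous for the floxed allele and were littermates, so that WT and APP/PS1 mice lacked Cre, whereas the design text names the WT mice C57BL/6J. Each genotype held 3 females and 3 males at 9 to 10 months of age, with 1 library per mouse.

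The libraries held 15925432 to 21030935 counts. A WT female, mouse 19622, stood apart: its summed excitatory neuron markers (6 genes, such as Slc17a7, Nrgn and Camk2a) were at 447 on the counts-per-million (CPM) scale against 5129 to 6924 in the other WT mice, and its summed cerebellum markers (Cbln3, Gabra6, Pcp2, En2 and Zic1) were at 2070 against 20.4 to 43.7. It was left out of all tests below and its values are given apart, so that the comparisons rest on 5 WT, 6 APP/PS1 and 6 APP/PS1/FTnKO mice. The excitatory neuron markers were present in those 17 mice, whose lowest sum was 3810 CPM. The summed striatum markers ran from 484 to 1445 CPM in the same mice. Fntb lay at 7.84 to 14.7 CPM in APP/PS1/FTnKO, against 14.2 to 32.1 CPM in APP/PS1 mice and 14.1 to 32.2 CPM in the WT mice. The highest APP/PS1/FTnKO mouse thus overlapped the lowest mice of the other genotypes, and Fntb was not called between APP/PS1/FTnKO and APP/PS1 (log2 fold change -0.77, SE 0.26, adjusted p = 0.251, edgeR). In such bulk tissue, fewer cells of a type and less RNA per cell cannot be told apart.

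The sequences show how closely some of these genes resemble others, which bears on the counts given to each. The c subunit of the ATP synthase, whose ring turns as protons pass, is encoded by Atp5g1 (chromosome 11, 96068852 to 96075670), Atp5g2 (chromosome 15, 102662864 to 102672352) and Atp5g3 (chromosome 2, 73908447 to 73911326; GRCm38, all on the minus strand). The 3 precursors begin with unlike stretches of 58, 68 and 63 codons, in that order, which hold the import signal, and then end in the same 78 residues, which hold the mature c subunit. The last 237 coding bases of each gene (GENCODE M21), that is these 78 codons and the stop codon, are printed with capitals at the 64 bases at which the 3 genes are not all alike.
Atp5g1: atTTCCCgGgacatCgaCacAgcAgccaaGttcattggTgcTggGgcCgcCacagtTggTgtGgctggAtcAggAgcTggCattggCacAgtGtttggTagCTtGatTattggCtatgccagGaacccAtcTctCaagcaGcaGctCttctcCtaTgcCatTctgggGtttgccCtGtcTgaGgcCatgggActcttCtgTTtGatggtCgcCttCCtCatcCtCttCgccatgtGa
Atp5g2: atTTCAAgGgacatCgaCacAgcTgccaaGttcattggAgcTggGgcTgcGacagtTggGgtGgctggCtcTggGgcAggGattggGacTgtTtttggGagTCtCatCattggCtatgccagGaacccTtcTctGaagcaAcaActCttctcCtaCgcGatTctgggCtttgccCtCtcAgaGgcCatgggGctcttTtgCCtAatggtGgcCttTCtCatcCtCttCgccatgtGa
Atp5g3: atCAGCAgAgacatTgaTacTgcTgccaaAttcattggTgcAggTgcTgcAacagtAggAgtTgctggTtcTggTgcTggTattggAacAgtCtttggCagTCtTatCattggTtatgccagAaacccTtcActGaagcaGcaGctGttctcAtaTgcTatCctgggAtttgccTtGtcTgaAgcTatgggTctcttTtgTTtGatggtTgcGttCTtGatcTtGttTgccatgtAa
The pairs differed at 36 bases (Atp5g1 and Atp5g2), 51 bases (Atp5g1 and Atp5g3) and 54 bases (Atp5g2 and Atp5g3), and in 0 of 78 residues. These differences are spread along the stretch, but 66.0% of the 50-base windows of the Atp5g1 transcript and 87.4% of those of Atp5g2 were also found in other annotated genes, mostly in Gm10039 and Gm10175, against 0% for Atp5g3. The treatment of reads that fit more than 1 place is not stated in the methods of the study.

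Several mitochondrial genes have a second, nearly identical copy in the nucleus. A run of 7 neighbouring unprocessed pseudogenes on chromosome 1 (24611535 to 24616197, GRCm38) repeat the stretch of the mitochondrial genome from the end of mt-Co1 to the first part of mt-Nd4. Here mt-Nd3 (mitochondrial genome, 9459 to 9806) and its copy Gm28438 (chromosome 1, 24612775 to 24613119, minus strand) are shown over their first 90 bases, with a capital at the only base in 345 at which they differ.
mt-Nd3: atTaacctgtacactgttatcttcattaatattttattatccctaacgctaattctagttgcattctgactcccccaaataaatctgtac
Gm28438: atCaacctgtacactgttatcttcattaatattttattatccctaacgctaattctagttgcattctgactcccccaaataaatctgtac
Bases 296 to 385 of mt-Co2 (mitochondrial genome, 7013 to 7696) stand for the genes with no difference at all. Its copy Gm28661 has the same letters there and throughout the 681 bases compared.
mt-Co2: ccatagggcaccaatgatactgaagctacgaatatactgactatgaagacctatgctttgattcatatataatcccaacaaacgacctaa
The copies of mt-Co3, mt-Atp6 and mt-Nd4l also held 0 differences over 783, 678 and 294 bases. For mt-Nd4 the identical part covered the first 876 of 1378 bases, and for mt-Co1 the last 492 of 1545 bases, with 6 differences.

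The levels of the mitochondrial members followed this division in part. Mean levels per length over the 17 mice were 10433 CPM per kb for mt-Co1, which encodes the catalytic core of complex IV, 5669 for mt-Cytb, the cytochrome b of complex III, and 4969 for mt-Nd1. These were the 3 highest members per length of all. mt-Nd2, mt-Nd5 and mt-Nd4, further membrane subunits of complex I, followed at 3316, 2222 and 2153 CPM per kb. By contrast, the 5 genes with 98.0% to 100% of their windows in other genes lay far lower: mt-Co2 was at 92.2 CPM per kb, mt-Atp6 at 79.7, mt-Co3 at 68.2, mt-Nd3 at 11.7 and mt-Nd4l at 5.95. mt-Nd6, the subunit on the opposite strand (51.7 CPM per kb, 0% of windows shared), and mt-Atp8, which overlaps mt-Atp6 (13.4 CPM per kb), were low as well. Shared windows were counted in annotated genes only. By that count mt-Atp8 held 0%, but it lies between mt-Co2 and mt-Atp6. The copies of those genes, Gm10925 (to 24614651) and Gm28661 (from 24614885), leave a gap between them. Whether the gap holds a copy of mt-Atp8 was not tested. The median within-genotype standard deviation (SD) on the log2 scale was 1.04 over those 5 genes, 0.24 over the other 8 mitochondrial members, 0.08 over the 83 tested nuclear members and 0.18 over all 17414 tested genes. As a group the 5 genes varied the most, although mt-Atp8, counted among the other 8, had the largest SD of any member (1.56). Whether the counts of the 5 genes and of mt-Atp8 stand for the abundance of the mitochondrial RNAs was not tested.

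Among the nuclear members the highest levels per length were those of Atp5b, the catalytic β subunit of the ATP synthase (489 CPM per kb), Cox4i1 (472) and Cox8a (363). The lowest tested members were the pseudogene Ndufs6b (2.25 CPM per kb), Cox7a1 (2.35) and Cox4i2 (2.38). Where complex IV subunits exist as isoforms, the ubiquitous form was far above the form known from muscle or other tissues: Cox6a1 stood at 327 against 5.63 CPM per kb for Cox6a2, and Cox7a2 at 142 against 2.35 for Cox7a1. Ndufa4, long assigned to complex I and counted here with complex IV, was at 257 CPM per kb against 2.72 for Ndufa4l2. Cox8b had between 0 and 25 counts in each mouse and was not tested. Neither were Cox7b2, Ndufa11b, Ndufb4c, Cox8c and the second row named Atp5o, the last 2 with 0 counts in all 18 mice, which allows up to 3 counts in all or 0.00904 CPM (counting error only). The other 96 members passed the filter on low counts.

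APP/PS1/FTnKO mice were first compared with APP/PS1 mice, from which they differ by the neuronal deletion and by the Cre transgene. The deletion and the transgene cannot be told apart, since no other genotype here carried Cre. Nuclear subunit transcripts lay slightly below those of APP/PS1 on the median: 2 members were called at an adjusted p under 0.05 (edgeR quasi-likelihood test), Atp5g1 of complex V and Cox8a of complex IV, both lower, where 0.144% of all tested genes were called lower and 0.327% in either direction. At an unadjusted p under 0.05, 37 of the 96 members were lower and 2 were higher, against 5.69% and 5.82% of all tested genes. The median log2 fold change was -0.09 over the 83 tested nuclear members and -0.0016 over all tested genes. Of the nuclear members 73 had a log2 fold change below 0 and 10 above 0, against 50.5% and 49.5% of all genes. DESeq2, the tool of the study's own methods, called 10 of the 100 members it tested in this comparison, all lower: Atp5g1, Cox8a, Uqcr11, Cox7a2, Cox6c, Atp5g3, Uqcr10, Cox6b1, Atp5l and Atp5b. Of all 33091 genes with a p from DESeq2, 244 were called, 130 of them lower. This total was not filtered on low counts and holds genes that DESeq2 may leave out of its adjustment. The share called is therefore diluted and cannot be set beside that of edgeR. On data simulated for this comparison, the share of false calls was above the threshold for DESeq2 and below it for edgeR. DESeq2 recovered more of the genes changed by the smallest simulated fold. These data were drawn once, with the spread that edgeR had estimated, so they cannot rank the tools on the real counts.

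Atp5g1 was the member with the smallest p. It was at 79.2, 79.6, 83.6, 83.9 and 86.6 CPM in the 5 WT mice, at 86.8 to 93.4 (median 88.8) in APP/PS1 and at 70.7 to 79.3 (median 74.5) in APP/PS1/FTnKO. All 6 APP/PS1/FTnKO mice lay below all 6 APP/PS1 mice, and their highest value just reached the lowest WT mice. The log2 fold change against APP/PS1 was -0.25 (SE 0.04, adjusted p = 0.00644, edgeR), and it was called in each of the 17 fits that left out 1 mouse. It was not called with only the 2 genotypes in the fit (adjusted p = 0.0516, edgeR) or with all 18 mice (adjusted p = 0.172, edgeR). Atp5g3, the most abundant c subunit gene, ran from 161 to 190 CPM in APP/PS1 mice and only from 150 to 159 CPM in APP/PS1/FTnKO mice, again without overlap (log2 fold change -0.17, SE 0.04, adjusted p = 0.0801, edgeR, not called). Atp5g2 overlapped fully, at 50.6 to 60.0 and 50.1 to 60.1 CPM in the same order (log2 fold change -0.01, SE 0.06, adjusted p = 0.982). Summed over the 3 genes the c subunit was at 308 to 332 CPM in APP/PS1, 278 to 297 in APP/PS1/FTnKO and 294 to 309 in WT.

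Cox8a, a small subunit on the membrane part of complex IV, was at 193 to 250 CPM (median 219) in APP/PS1 and at 153 to 205 (median 178) in APP/PS1/FTnKO. The groups overlapped, since the highest APP/PS1/FTnKO mouse stood above the lowest APP/PS1 mouse. The WT mice, at 193, 194, 202, 205 and 214 CPM, overlapped with both groups. Its log2 fold change was -0.33 (SE 0.07, adjusted p = 0.0485, edgeR), the call was kept in 2 of the 17 fits that left out 1 mouse, and its adjusted p reached 0.107 in those fits. No 50-base window of Cox8a lies in another gene.

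The next smallest p were those of Uqcr11 (complex III), Cox7a2 and Cox6c (complex IV), with log2 fold changes of -0.27, -0.20 and -0.21 and adjusted p of 0.0546, 0.0586 and 0.0733 (edgeR, not called). Uqcr11, a small subunit added late in the assembly of complex III, was at 72.0 to 89.7 CPM in APP/PS1 and at 62.7 to 72.5 in APP/PS1/FTnKO, overlapping at the edge only. Without overlap and lower were 5 members, Atp5g1, Atp5g3, Cox7a2, Uqcr10 and Ndufs6, where 0.373% of all genes were so. In the other direction, the smallest unadjusted p belonged to Cox7a2l, an assembly factor of respiratory supercomplexes, with a log2 fold change of 0.12 (adjusted p = 0.388), and to Ndufa4l2, a low-level paralog of Ndufa4, with 0.41 (adjusted p = 0.417). Ndufb10, an accessory subunit of complex I, was at 0.06 (adjusted p = 0.664, edgeR).

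**Figure D1:**
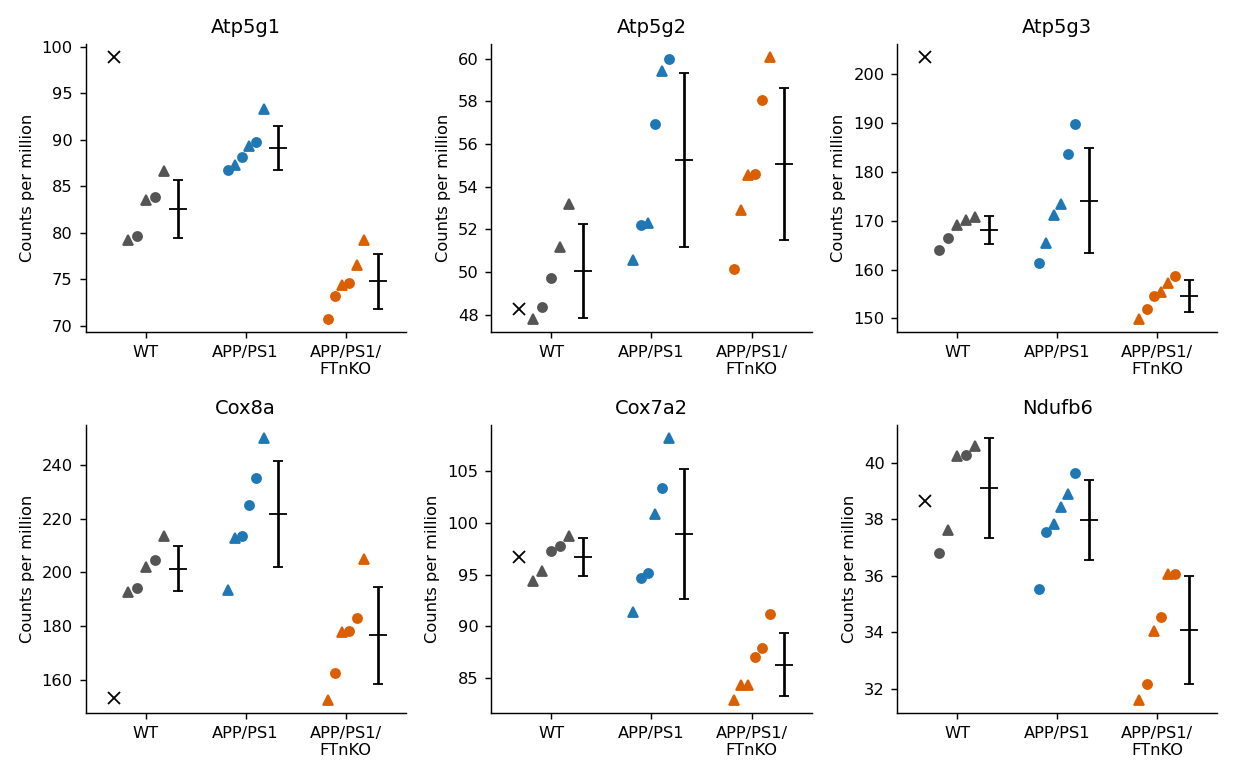
Levels (CPM) of the 3 c subunit genes and of Cox8a, Cox7a2 and Ndufb6 in each mouse (circles females, triangles males), with the mean and SD of each genotype beside the points. The vertical axes do not start at 0, and the cross marks mouse 19622, which is outside the mean. Atp5g1 and Atp5g3 separate APP/PS1/FTnKO from APP/PS1 fully, whereas Atp5g2 does not.

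By complex, the medians were lowest in IV, V and III and nearest to 0 in II. The median log2 fold change was -0.15 over 18 tested nuclear members of complex IV, -0.13 over 17 of complex V, -0.12 over 8 of complex III, -0.07 over 36 of complex I and -0.02 over the 4 of complex II. At an unadjusted p under 0.05, 9 members of complex IV, 11 of V, 5 of III, 11 of I and 0 of II were lower. In complex IV 2 were higher and in the others 0, where 5.69% of all tested genes were lower and 5.82% higher. Among the catalytic subunits, Atp5b had a log2 fold change of -0.16 (adjusted p = 0.22), its partner Atp5a1 -0.08 (adjusted p = 0.609), and Uqcrfs1, the Rieske iron-sulfur protein of complex III, -0.14 (adjusted p = 0.179). Of the electron-transferring core of complex I, Ndufs1, Ndufs3, Ndufs7, Ndufs8, Ndufv1 and Ndufv2 lay between -0.09 and -0.02, and Ndufv1, which binds NADH, had the smallest unadjusted p among them (0.0447). The succinate dehydrogenase genes Sdha, Sdhb, Sdhc and Sdhd lay between -0.02 and 0.02. Differences between complexes were not tested. The complexes also differ in transcript length, since all 4 transcripts of complex II are longer than 1000 bases. Complex and length were not separated here.

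**Figure D2:**
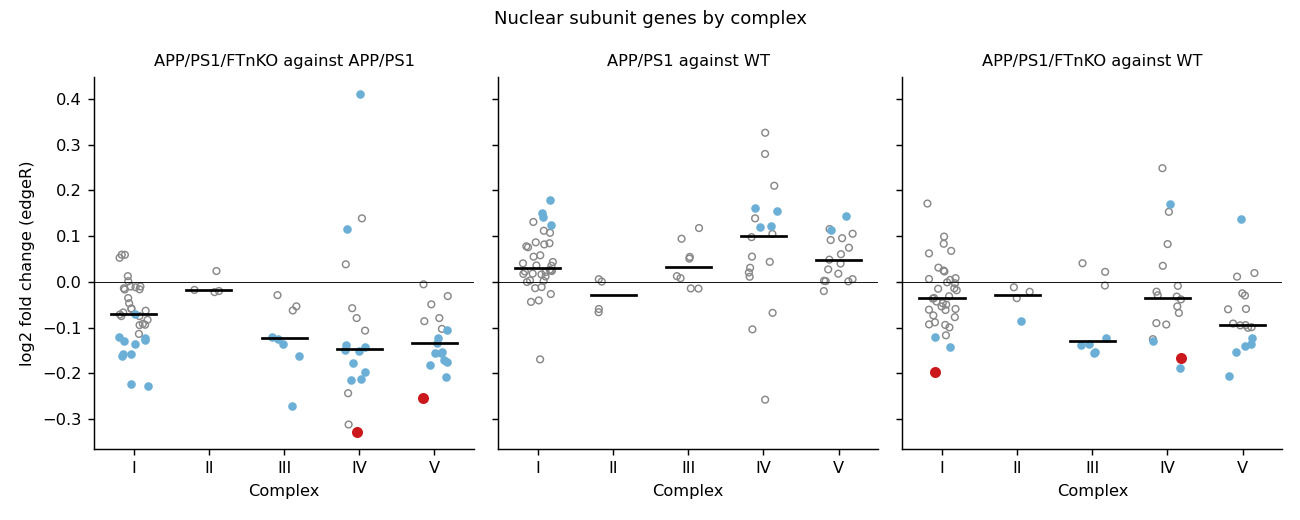
Log2 fold change of the 83 tested nuclear members in the 3 comparisons, by complex. Red points were called at an adjusted p under 0.05 (edgeR), blue points had an unadjusted p under 0.05, open points neither, and black bars are medians. In APP/PS1/FTnKO against APP/PS1 the medians of complexes III, IV and V lie between -0.15 and -0.12, and that of complex II at -0.02.

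Most nuclear members have short transcripts, with a median of 731 bases against 2694 over all tested genes, so the same values were taken within a length class. Over the 57 tested nuclear members with transcripts of at most 1000 bases the median log2 fold change was -0.13, and 31 of them (54.4%) were lower at an unadjusted p under 0.05. Over all 2122 tested genes of that length the median was 0.01 and 5.33% were lower. The 26 longer nuclear members had a median of -0.07, and 5 of them (19.2%) were lower. Over all 15275 tested genes of that length the median was -0.0025 and 5.74% were lower. Among the 83 nuclear members the log2 fold change rose with transcript length (Spearman correlation 0.33), against -0.05 over all tested genes of known length. The part of transcript length in the subunit values was not tested.

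RNA integrity and cell type markers are given beside these values. The RNA integrity number (RIN) was 7.7 to 8.7 (median 8.2) in APP/PS1 and 7.6 to 8.7 (median 8.6) in APP/PS1/FTnKO. With RIN as a covariate the nuclear median was -0.08 and 6 members were called, 5 of them lower, out of 261 genes called in all (57 without the covariate), and among mice with an RIN of at least 8 it was -0.10. The summed excitatory neuron markers ran from 4611 to 6684 CPM in APP/PS1 and from 3810 to 5568 in APP/PS1/FTnKO, with 4 of 6 markers below 0 on the log2 scale, 2 of these at an unadjusted p under 0.05. The 5 microglia markers were all below 0, 2 at an unadjusted p under 0.05, and summed to between 318 and 523 CPM in APP/PS1 and between 255 and 410 CPM in APP/PS1/FTnKO. Camk2a, whose promoter drives the Cre transgene, was at 2782 to 4352 CPM in APP/PS1 mice and at 2298 to 3656 CPM in APP/PS1/FTnKO mice (log2 fold change -0.42, SE 0.13, adjusted p = 0.196, edgeR). Of the other lists, plaque-associated microglia markers lay below 0 in 4 of 5 cases (median -0.32), choroid plexus markers in 3 of 3 tested (median -0.83, 2 at an unadjusted p under 0.05) and astrocyte markers in 4 of 5 (median -0.10). Markers of other brain regions lay below 0 in 4 of 5 cases for striatum (median -0.09) and 2 of 3 tested for cerebellum (median -0.21). Endothelial markers did so in 4 of 5 (median -0.0080) and oligodendrocyte markers in 2 of 5 (median 0.01), while interneuron markers lay above 0 in 6 of 6 (median 0.04). The summed choroid plexus markers ran up to 458 CPM in APP/PS1, where the median mouse was at 14.3 CPM. No marker of any list was called by edgeR, and the part of cell composition in the subunit values was not tested.

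In the mitochondrial genome 0 of 13 members were called by edgeR in this comparison, their median was -0.09 (0.03 with RIN as a covariate), and mt-Nd3 alone had an unadjusted p under 0.05 (log2 fold change -0.71, SE 0.32, adjusted p = 0.403). That value rested on mouse 19723, an APP/PS1 female with 14.2 CPM of mt-Nd3 against a group median of 3.96. Without it the log2 fold change was -0.21 (adjusted p = 0.707). mt-Co1 lay between 13491 and 21138 CPM in APP/PS1 and between 12751 and 19699 CPM in APP/PS1/FTnKO, overlapping widely (log2 fold change -0.03, SE 0.12, adjusted p = 0.949). For mt-Nd1, mt-Nd2, mt-Nd4, mt-Nd5 and mt-Cytb the log2 fold changes lay between -0.11 and -0.05, each with an SE above that size. mt-Nd6 was at -0.0041 (SE 0.14). The other members had larger errors: mt-Co2 was at 0.80 (SE 0.51), mt-Nd4l at 0.72 (SE 0.47), mt-Atp6 at -0.16 (SE 0.60), mt-Co3 at -0.12 (SE 0.68) and mt-Atp8 at -1.54 (SE 1.03).

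Summed over all members, the nuclear genes made up 8495 to 9172 CPM in APP/PS1, 7939 to 8549 in APP/PS1/FTnKO and 8523 to 8672 in WT. The highest APP/PS1/FTnKO mouse lay above the lowest mouse of each other genotype, and the remaining 5 lay below all of these. The mitochondrial genes summed to 30977 to 49542, 28862 to 46517 and 32798 to 37182 CPM in the same order, so that all 3 genotypes overlapped. The ratio of the mitochondrial to the nuclear sum was 3.65 to 5.44 in APP/PS1, 3.58 to 5.53 in APP/PS1/FTnKO and 3.80 to 4.33 in WT. WT mice spanned the narrowest range in each of these sums.

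**Figure D3:**
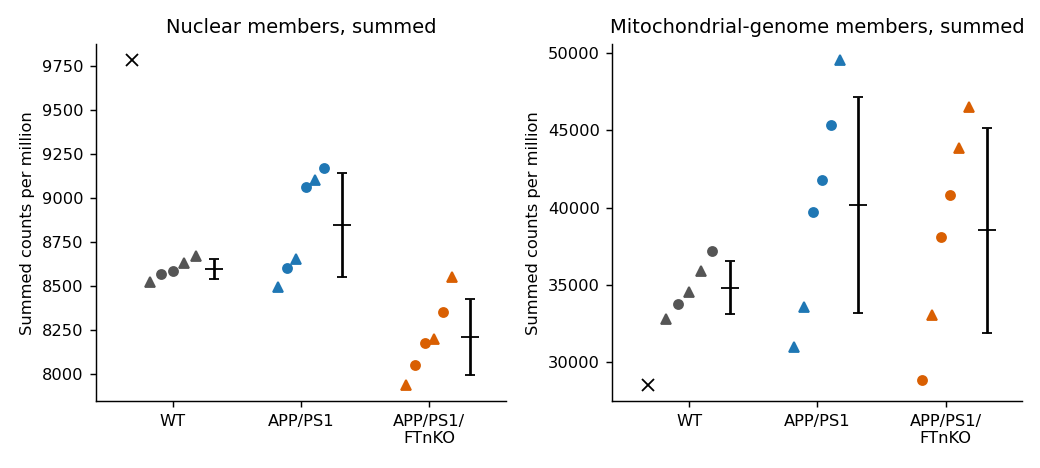
Summed levels (CPM) of the nuclear (left) and mitochondrial-genome (right) members in each mouse (circles females, triangles males), with the mean and SD of each genotype. The vertical axes do not start at 0, and the cross marks mouse 19622, which has the highest nuclear sum (9781) and the lowest mitochondrial sum (28531) of all 18 mice.

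APP/PS1 mice were then compared with WT mice. No member was called by edgeR or by DESeq2, where edgeR called 1.5% of all tested genes, 0.178% lower and 1.32% higher. At an unadjusted p under 0.05, 11 members were higher and 0 lower, against 7.91% and 6.05% of all genes (14% in either direction). The median log2 fold change was 0.04 over the nuclear members and 0.23 over the mitochondrial members, against -0.0023 over all genes. Of the nuclear members 68 lay above 0, against 49.4% of all genes. The 5 members with the smallest p in this direction were Atp5g1 (0.11), mt-Atp8, Ndufa3 (0.15), Cox4i1 (0.16) and Cox6b1 (0.12), with adjusted p between 0.191 and 0.240. Atp5g1, Cox6b1 and Ndufs6 were without overlap and higher and 0 members were so and lower, where 1.71% and 0.695% of all genes were. Among members below WT, Sdhb, the iron-sulfur subunit of complex II, had the smallest p (log2 fold change -0.07, adjusted p = 0.472), followed by Ndufb2 (-0.17), mt-Nd4l (-0.72), Ndufa4l2 (-0.26) and Sdhd (-0.06), with adjusted p between 0.480 and 0.667 (edgeR).

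mt-Atp8 had a log2 fold change of 3.12 (SE 1.13, adjusted p = 0.217, edgeR). It lay at 0.366 to 0.769 CPM in WT. In APP/PS1 it lay at 0.411 to 29.9, with a median of 0.916. The highest value belonged to mouse 19619 with 531 counts, and without it the log2 fold change was 0.72 (adjusted p = 0.601). The abundant mt-Co1, mt-Cytb, mt-Nd4, mt-Nd1, mt-Nd2 and mt-Nd5 were all above WT, by 0.12 to 0.25, as were mt-Nd6 (0.19), mt-Co2 (0.44), mt-Atp6 (0.61), mt-Nd3 (0.69) and mt-Co3 (0.71), none called, and the RIN of APP/PS1 (median 8.2) was below that of WT (median 8.7). The mitochondrial median was 0.23 and the nuclear median 0.04, and with RIN as a covariate they were -0.034 and -0.0040, each with the opposite sign. Among mice with an RIN of at least 8 they were 0.09 and 0.01. In this comparison the class of transcripts of at most 1000 bases had a median of 0.06, both over the 57 nuclear members and over all 2122 genes. Plaque-associated microglia markers (Cst7, Itgax, Clec7a, Trem2 and Lpl) were called higher in 5 of 5 cases and summed to 95.9 to 227 CPM in APP/PS1 against 44.8 to 55.0 in WT. Gfap (log2 fold change 2.78), C1qa (1.43), Csf1r (0.58) and Cx3cr1 (0.60) were also called higher by edgeR. Interneuron markers lay below 0 in 6 of 6 cases (median -0.12) and excitatory neuron markers in 5 of 6 (median -0.11), none called, and the part of these lists in the subunit values was not tested.

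APP/PS1/FTnKO mice were last compared with WT mice. These mice are the same as in the comparisons above, so the 3 sets of values are not independent. Here 2 members were called, both lower, Ndufb6 of complex I and Cox7a2 of complex IV, where 1.65% of all tested genes were called lower, 2.22% higher and 3.87% in either direction. At an unadjusted p under 0.05, 17 members were lower and 3 higher, against 10.9% and 11.3% of all genes, so that the share of lower members (17 of 96) was closer to the background than in the comparison with APP/PS1. The nuclear median was -0.05 and the mitochondrial median 0.18, against 0.0053 over all genes. With RIN as a covariate the mitochondrial median was -0.03, the opposite sign, and the nuclear median -0.09. Of the nuclear members 62 lay below 0, against 48.7% of all genes.

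Ndufb6, an accessory subunit in the membrane arm of complex I, was at 36.8, 37.6, 40.3, 40.3 and 40.6 CPM in WT and at 31.6 to 36.1 (median 34.3) in APP/PS1/FTnKO. The groups did not overlap, and the log2 fold change was -0.20 (SE 0.05, adjusted p = 0.039, edgeR). Its transcript shares 34.1% of its windows with other genes, all of them with the neighbouring Smim27. Cox7a2, a nuclear subunit bound to the membrane part of complex IV, was at 94.4, 95.3, 97.3, 97.8 and 98.7 CPM in WT and at 82.9 to 91.2 (median 85.7) in APP/PS1/FTnKO, also without overlap (log2 fold change -0.17, SE 0.05, adjusted p = 0.049, edgeR). APP/PS1 mice ran from 91.4 to 108 CPM. The call of Ndufb6 was kept in 8 and that of Cox7a2 in 3 of the 17 fits that left out 1 mouse. Neither was kept in a fit without a WT mouse, and Cox7a2 was kept only in fits without an APP/PS1 mouse, a genotype outside this comparison. Among mice with an RIN of at least 8 neither was called (adjusted p = 0.0592 and 0.059, edgeR), and with RIN as a covariate Ndufb6 was (0.0455) and Cox7a2 was not (0.0525). In all, 11 members were without overlap and lower and 0 were so and higher, where 2.85% and 2.75% of all genes were. The 11 were Atp5b, Atp5g3, Atp5l, Atp5mpl, Cox7a2, Ndufa4, Ndufb6, Ndufs1, Uqcr10, Uqcrfs1 and Uqcrq.

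Further members with small p against WT were Atp5g1 (log2 fold change -0.14, adjusted p = 0.0528), Uqcr10 (-0.15, adjusted p = 0.0654) and Atp5mpl (-0.21, adjusted p = 0.0686), none called by edgeR. DESeq2 called 8 members, 7 lower (Atp5g1, Ndufb6, Cox7a2, Uqcr10, Atp5b, Atp5mpl and Atp5l) and Cox7a2l higher, out of 1304 called among 33091 genes, 639 of them lower. As above, the 33091 genes were not filtered on low counts, so the share called over them is diluted. Cox7a2l was at 102 to 115 CPM in WT and at 115 to 137 in APP/PS1/FTnKO (log2 fold change 0.17, adjusted p = 0.0783, edgeR). Its paralog Cox7a2 thus had the opposite sign in the same mice. Atp5g2 was also above WT (log2 fold change 0.14, adjusted p = 0.185), while the other c subunit genes were below it. mt-Co2, a core subunit of complex IV whose windows all lie in other genes as well, was at 15.2, 15.7, 45.5, 48.1 and 71.6 CPM in WT and at 49.9 to 163 (median 73.8) in APP/PS1/FTnKO, with overlap (log2 fold change 1.24, SE 0.55, adjusted p = 0.195, edgeR). Of the other mitochondrial members, mt-Nd3 lay at -0.02 and mt-Nd4l at 0.0066 on the log2 scale. The log2 fold changes of mt-Nd1, mt-Nd2, mt-Nd4, mt-Nd5, mt-Nd6, mt-Cytb and mt-Co1 were between 0.05 and 0.19, and mt-Atp6 was at 0.44, mt-Co3 at 0.59 and mt-Atp8 at 1.58 (SE 1.18), none called. By complex, III had the lowest nuclear median (-0.13, 5 of 8 members lower at an unadjusted p under 0.05), followed by V (-0.09), I (-0.04), IV (-0.04) and II (-0.03).

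Excitatory neuron markers had log2 fold changes below 0 against WT in 6 of 6 cases, and Slc17a7, the vesicular glutamate transporter of cortical excitatory neurons, was called (log2 fold change -0.46, SE 0.12, adjusted p = 0.0396, edgeR). Their sum was 5129 to 6924 CPM in WT and 3810 to 5568 in APP/PS1/FTnKO. Markers of other cells moved as well: the 5 plaque-associated microglia markers were all called higher (median log2 fold change 4.74), as were Gfap of astrocytes (2.53) and C1qa of microglia (1.18). The part of any of these in the subunit values was not tested.

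Whether the genotype differences were unlike in females and males was asked with an interaction term. By edgeR 0 of 96 members were called for the difference of APP/PS1/FTnKO from APP/PS1, and 0 for that of APP/PS1 from WT, where 0% of all tested genes were called in each. At an unadjusted p under 0.05 there were 4 members (mt-Atp8, mt-Nd3, Ndufb7 and Uqcrq) and 2 members (mt-Atp8 and Ndufb2), against 3.32% and 4.05% of all genes. Without a filter on low counts edgeR called mt-Atp8 in both tests. DESeq2 called 0 members in either test, and 1 and 2 of all genes. For Atp5g1 the difference between the sexes in the log2 fold change against APP/PS1 was -0.05 (SE 0.08).

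Other genes of the pathway were taken by list. Between APP/PS1/FTnKO and APP/PS1, the median log2 fold change was 0.03 over 15 complex I assembly factors, 0.0026 over 30 assembly factors of complexes II to V, 0.02 over 22 genes of mitochondrial DNA replication and expression, -0.04 over 18 genes of the tricarboxylic acid cycle, -0.05 over 22 carriers and outer or inner membrane proteins and -0.04 over 13 transcriptional regulators. Over 6 tested genes that belong to the chain or to its regulation but that the name rule does not take, such as Cyc1 (cytochrome c1), Cycs (cytochrome c) and the ATPase inhibitor Atpif1, it was -0.06. None of these genes was called by edgeR in that comparison or between APP/PS1 and WT. At an unadjusted p under 0.05, 1 of 15, 1 of 30, 0 of 22, 2 of 18, 2 of 22, 1 of 13 and 2 of 6 were lower, in the order given, and 1 of 15 and 3 of 30 assembly factors and 0 in the other lists were higher, against 5.69% and 5.82% of all genes. Against WT, 3 were called higher in APP/PS1/FTnKO: the complex IV assembly factors Surf1 (log2 fold change 0.28, adjusted p = 0.0417) and Coa5 (0.18, adjusted p = 0.0215), and Timm44 of the protein import motor (0.27, adjusted p = 0.0458, edgeR), while 2.22% of all tested genes were called higher there. In that comparison the median was -0.08 over the tricarboxylic acid cycle (14 of 18 below 0, 3 without overlap and lower) and -0.08 over the transcriptional regulators (8 of 13 below 0, 3 without overlap and lower), against -0.05 over the nuclear members. Of all tested genes, 48.7% were below 0 and 2.85% were without overlap and lower. For the other lists it lay between -0.04 and 0.05. Differences between lists were not tested.

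Promoters were read for sequence that nuclear members share, because NRF1 and GABP are the classic regulators of these genes. A promoter (250 bases before the start, RefSeq, GRCm38.p6) was found by name for 68 of the 89 nuclear members, and the motifs were searched in these 250 bases on both strands. The NRF1 motif, GCGCA and GCGC with any 1 base between them, was present in 13 of the 68 (19.1%), against 4.23% of 27025 genes, the GABP motif CCGGAAG in 12 (17.6%) against 7.83%, and the YY1 motif AAGATGGC in 1 (1.47%) against 1.83%. Of the members lower at an unadjusted p under 0.05 in APP/PS1/FTnKO against APP/PS1, 29 had a promoter, of which 5 held the NRF1 and 6 the GABP motif. Of the other tested members 37 had a promoter, of which 8 and 6 did. A match is a description of the letters and no test was made of these shares. Nrf1, Gabpa and Yy1 were among the 13 regulators of which none was called.

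The promoter of Uqcr11 (chromosome 10, 80406822 to 80407071, minus strand) is shown as the promoter with the GABP letters, in capitals, and the smallest p among the lower members. That of Cox6a1 (chromosome 5, 115348959 to 115349208, minus strand) is shown likewise for NRF1, and holds the NRF1 letters at 2 places and the GABP letters on the opposite strand. Cox6a1 had a log2 fold change of -0.21 (adjusted p = 0.218) against APP/PS1.
Uqcr11: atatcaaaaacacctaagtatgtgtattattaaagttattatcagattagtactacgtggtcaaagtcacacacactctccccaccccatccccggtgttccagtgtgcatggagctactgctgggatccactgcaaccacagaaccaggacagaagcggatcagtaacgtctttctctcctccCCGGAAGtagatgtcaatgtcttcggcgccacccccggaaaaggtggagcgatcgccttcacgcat
Cox6a1: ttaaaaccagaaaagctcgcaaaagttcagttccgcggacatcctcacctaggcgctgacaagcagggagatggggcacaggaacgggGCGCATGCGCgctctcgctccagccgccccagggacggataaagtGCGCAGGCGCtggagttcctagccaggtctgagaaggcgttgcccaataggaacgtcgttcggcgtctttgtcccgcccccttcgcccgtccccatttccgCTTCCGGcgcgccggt
The promoter of Atp5g1, the member with the smallest p, held none of the 3 motifs.

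Mouse 19622 differed from the other WT mice in opposite directions in the 2 genomes. Of the 83 nuclear members, 51 (61.4%) lay above all 5 other WT mice and 16 (19.3%) below, where 38.4% and 35.2% of all tested genes did so. Of the 13 mitochondrial members, 0 lay above and 9 (69.2%) below. The median difference on the log2 scale was 0.16 for nuclear and -0.37 for mitochondrial members. The largest differences were those of isoform genes: Cox6a2 was at -1.87 and Cox7a1 at 1.84 relative to their mean. Atp5g1 was at 98.9 CPM in this mouse, above all 17 others, and Cox8a at 154, below the other WT mice. With this mouse in the fit, 0 members were called by edgeR in each of the 3 comparisons, and calls over all 17285 genes came to 2 (both transgenic groups), 207 (APP/PS1 and WT) and 261 (APP/PS1/FTnKO and WT). In that order, 36, 16 and 22 members had an unadjusted p under 0.05.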

How the data were processed

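Per the labels, 18 frontal cortex mRNA libraries (TruSeq Stranded, 150-base paired reads) were sequenced. The authors trimmed reads (Trimmomatic 0.33), aligned them (HISAT2 2.1.0) to GRCm38 and deposited raw counts per gene (featureCounts); strand and multi-mapping settings are not stated. The labels name mm10 and mm9.

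From these counts, edgeR 4.0.16 (R 4.3.3) was fitted on all genes passing filterByExpr (minimum count 10) in 17 mice, without mouse 19622, with TMM scaling, sex as covariate and Benjamini-Hochberg adjustment over 17414 genes (threshold 0.05). The fits were repeated with other filters, RLE scaling, limma 3.58.1 (voom), DESeq2 1.42.0, other covariates and sets of mice, and without each mouse in turn, and the code was tested on simulated data. CPM are TMM-scaled. Levels per length use 1 principal GENCODE M21 transcript per gene. Each sample is 1 mouse, so p-values measure the spread between mice.

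Members and lists were chosen with earlier results of these data known. Named with values are the called members (the 5 smallest p per direction where fewer than 5 were called), all mitochondrial members, c subunit, core and isoform genes, the 3 highest and 3 lowest per length, and up to 3 called genes per list; an item the rule takes is not reported here. A few others were chosen after their values were seen (members without overlap, those called by DESeq2, and those with an unadjusted p under 0.05).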

Additional observations from a re-analysis of the deposited data

Results flagged for a closer look

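Among 150 groups of 5 or 6 mice (the named members in each genotype), 10 (6.67%) held a mouse set apart from the rest of its group by Dixon's criterion, which chance alone gives in about 1 in 20. The largest gaps were in mitochondrial members with few counts. mt-Atp8 was at 29.9 CPM in mouse 19619 (APP/PS1) against 2.05 in the next, and at 4.92 in mouse 19394 (APP/PS1/FTnKO) against 1.16. mt-Nd3 was at 14.2 CPM in mouse 19723 (APP/PS1) against 4.72, and at 5.09 in mouse 16974 (APP/PS1/FTnKO) against 3.10. Among the nuclear members in APP/PS1/FTnKO, Ndufs3 was at 68.3 CPM and Ndufa4l2 at 1.45 in mouse 19394. Cox6b1 was at 132 CPM in mouse 16974, Ndufs1 at 106 in mouse 19720 and Uqcr10 at 54.6 in mouse 18973. In WT, Cox4i1 was at 362 CPM in mouse 19101.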

How the results depend on the processing

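The counts of called members were small. For APP/PS1/FTnKO, against either other genotype, they moved with most settings. For APP/PS1 against WT and for the interaction they moved only without a filter on low counts. The nuclear medians kept their sign except where stated. For APP/PS1/FTnKO against APP/PS1 (2 called), 10 were called by DESeq2, 6 with the RNA integrity number (RIN) as covariate, 4 without a sex term, 1 by limma-voom, 1 among mice with an RIN of at least 8, 0 with only the 2 genotypes in the fit and 0 with all 18 mice. All genes called (57) moved as well, to 244, 261, 56, 47, 14, 5 and 2 in that order. For APP/PS1/FTnKO against WT (2 called), 8 were called by DESeq2, 1 each (Ndufb6) by limma-voom, under a filter of at least 50 counts in 5 mice and with mitochondrial genes left out of the library totals, 1 (Atp5mpl) among mice with an RIN of at least 8, and 0 without a filter and with all 18 mice, where all genes called (674) were 1304, 647, 704, 665, 368, 971 and 261. For APP/PS1 against WT (0 called), 1 was called without a filter (mt-Atp8), as it was in both interactions, giving 2 there. With RIN as covariate the medians for APP/PS1 against WT were -0.034 (mitochondrial) and -0.0040 (nuclear), and the mitochondrial medians of the other comparisons also changed sign, to 0.03 against APP/PS1 and -0.03 against WT. RIN as covariate left 3 calls against WT, of other members in part (Atp5mpl, Ndufb6 and Uqcr10). Among mice with an RIN of at least 8 the mitochondrial medians were 0.09 for APP/PS1 against WT (0.23 with all RIN values), -0.03 against APP/PS1 (-0.09) and 0.09 against WT (0.18), and the nuclear median for APP/PS1 against WT was 0.01 (0.04). The causes of these changes were not tested. The interaction was not run without a sex term or with only 2 genotypes in the fit.

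Leaving out 1 mouse at a time gave 1 to 2 called members against APP/PS1 and 0 to 5 for APP/PS1/FTnKO against WT (5 without APP/PS1 replicate 1), and 0 in the other 2 counts. The nuclear medians then ran from -0.12 to -0.08, from 0.02 to 0.05 and from -0.07 to -0.03 in the order APP/PS1/FTnKO against APP/PS1, APP/PS1 against WT and APP/PS1/FTnKO against WT, and the mitochondrial medians from -0.16 to -0.0062, from 0.14 to 0.30 and from 0.04 to 0.22. Atp5g1 was called against APP/PS1 in 26 of 28 alternatives (adjusted p at most 0.172), Cox8a in 9 (at most 0.365), and against WT Ndufb6 in 15 (at most 0.135) and Cox7a2 in 7 (at most 0.156). No paired analysis was possible because the labels carry no replicate numbers shared between genotypes. With 5 or 6 mice a group, differences of the size seen here, mostly under 0.3 on the log2 scale, were seldom called, and mt-Atp8, mt-Co3, mt-Atp6 and mt-Co2 had the largest spread within a genotype among the mitochondrial members.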
